A study of Rattus norvegicus with 12 samples.

Results

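The 10 genes described here act in cell division, and their RNA was measured in rat prefrontal cortex on postnatal day 15: the kinases Cdk1, Plk1, Aurkb and Bub1, the cyclins Ccnb1 and Ccna2, the anaphase activator Cdc20, the passenger protein gene Birc5, the topoisomerase gene Top2a and the proliferation marker gene Mki67. The arrays carried 15 probes for these 10 genes among 30367 probes with 26047 gene names, selected by gene name alone. Birc5 was on the list because its level was seen to be lower after betamethasone in these same samples, so its values, and those of all members in that comparison, are given as a description without a test. The study compared 3 groups of 4 female Sprague-Dawley rats, and RNA came from whole prefrontal cortex tissue. The betamethasone with ketamine group came from dams given 2 injections of betamethasone, a synthetic glucocorticoid, at 0.4 mg/kg each on gestational day 15, and received ketamine, a blocker of NMDA-type glutamate receptors, at 35 mg/kg on postnatal day 14. The betamethasone group had the same prenatal injections and received saline on postnatal day 14, and the control group had saline at both times. The labels place infantile spasms, a seizure type of early life, before the postnatal injection but do not say which animals had them, and they do not tie animals to litters, so that the tests measure the spread between these animals, which may share litters.

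Cells that divide switch on these genes together late in the cell cycle. Cdk1 bound to a cyclin A or cyclin B drives entry into mitosis, Plk1 and the passenger complex of Aurkb, Incenp, Cdca8 and Birc5 guide chromosome attachment and cytokinesis, Bub1 holds the spindle checkpoint, and Cdc20 then turns on the ubiquitin ligase that starts anaphase. Birc5, also named survivin, is an inhibitor of apoptosis protein as well. In the cortex of a rat of this age most neurons no longer divide, and dividing cells are largely glial precursors and other non-neuronal cells. In bulk tissue, fewer cells of a type and less RNA per cell cannot be told apart.

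Each of the 6 arrays carried 2 animals of the same group, one in Cy3 and one in Cy5. The 2 control arrays lay alone on 1 slide and the 4 arrays of the exposed groups on the other, so that for either contrast against control, slide and exposure cannot be told apart. The spike-in slopes were 0.492 and 0.542 on the control arrays and 0.873 to 0.881 on the others. Of 42877 non-control spots, 71.4% to 81.5% were well above background in each sample and none was saturated. The array of betamethasone with ketamine animals 1 and 2 stood apart: these samples lay at 55.6 and 57.7 on the first principal component (43% of the variance), against -21.2 to -7.27 for the remaining samples. Areas of damage covered 5.48% of the spots on that array, and no spot of the 10 genes lay in them. Within groups, samples correlated at 0.974 to 0.998. All 8 neuron marker genes tested were well above background in every sample.

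The probes are single 60-base sequences, and they differ in what part of a transcript they read. The Cdk1 probe and one Mki67 probe were printed on 10 spots per array and the remaining 13 probes on 1 spot each. Sequences are shown for the Cdk1 probe, whose repeated spots give the spread between spots of 1 sample. Those of Ccnb1, Cdc20 and Aurkb are also shown. Their genomic spans in the array's rn4 annotation (240, 971 and 142 bases) exceed the 60 bases of the probe. Such a span is seen for a probe that crosses an intron.
Cdk1 probe, chr20:20043755-20043814, plus strand: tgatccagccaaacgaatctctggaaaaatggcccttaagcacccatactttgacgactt
Ccnb1 probe, chr2:31574809-31575048, minus strand: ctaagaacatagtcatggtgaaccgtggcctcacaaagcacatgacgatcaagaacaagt
Cdc20 probe, chr5:138913267-138914237, minus strand: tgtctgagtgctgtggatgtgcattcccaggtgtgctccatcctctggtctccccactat
Aurkb probe, chr10:55801393-55801534, plus strand: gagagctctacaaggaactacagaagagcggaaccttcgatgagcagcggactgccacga
The array annotation gave the Birc5 probe no place in rn4. Its GC content was 35%, against 45% for the Cdk1 probe and 55% for the Cdc20 and Aurkb probes.

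Genes of this set are known to share 2 kinds of promoter element, the CCAAT box and the cell cycle homology region, written here as TTTGAA or TTTAAA. Promoters of 8 of the 10 genes (all but Ccna2 and Aurkb) were matched by symbol in the RefSeq table for GRCr8, each running from 250 bases before to 50 bases after the start site. CCAAT was found on either strand in 7 of the 8 and in 37.5% of all 33469 promoters, and either spelling of the homology region in 8 of the 8 and in 28.3% of all promoters. Both elements were found together in 7 of the 8, against 11.3% of all promoters. The promoters of Birc5, Cdk1 and Plk1 are shown because their differences from control after betamethasone were the largest of the 10 genes apart from 1 Mki67 probe, with the 2 elements in capitals on either strand.
Birc5 promoter, chr10:103571896-103572195, plus strand: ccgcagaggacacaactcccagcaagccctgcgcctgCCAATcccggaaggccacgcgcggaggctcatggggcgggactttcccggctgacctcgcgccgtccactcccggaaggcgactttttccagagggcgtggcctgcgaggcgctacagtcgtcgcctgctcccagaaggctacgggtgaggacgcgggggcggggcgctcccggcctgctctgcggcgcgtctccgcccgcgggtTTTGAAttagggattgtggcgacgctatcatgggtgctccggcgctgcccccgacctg
Cdk1 promoter, chr20:19265043-19265342, plus strand: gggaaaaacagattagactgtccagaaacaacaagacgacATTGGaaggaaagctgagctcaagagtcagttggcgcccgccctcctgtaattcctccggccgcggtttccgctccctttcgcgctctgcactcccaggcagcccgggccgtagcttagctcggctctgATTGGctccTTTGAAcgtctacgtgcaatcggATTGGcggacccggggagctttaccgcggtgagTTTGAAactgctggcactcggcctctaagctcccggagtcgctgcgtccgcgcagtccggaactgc
Plk1 promoter, chr1:186147408-186147707, plus strand: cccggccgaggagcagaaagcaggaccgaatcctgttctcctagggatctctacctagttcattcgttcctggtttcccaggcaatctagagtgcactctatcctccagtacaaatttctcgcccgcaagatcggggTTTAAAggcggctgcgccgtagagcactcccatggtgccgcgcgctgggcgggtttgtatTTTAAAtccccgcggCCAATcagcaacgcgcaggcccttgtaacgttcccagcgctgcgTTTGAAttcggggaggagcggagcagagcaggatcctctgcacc
With the start site at 0, the Birc5 window held 1 CCAAT at -213 to -209 and 1 TTTGAA at -8 to -3. The Cdk1 window held 3 CCAAT and 2 TTTGAA, and the Plk1 window 1 CCAAT, 1 TTTGAA and 2 TTTAAA. No CCAAT overlapped a homology region in these 3 windows, while 1 did in the Mki67 promoter. These are matches of letters and were not tested as binding sites.

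Of the 15 probes, 13 were well above background in 3 or more animals of some group and entered the model of 21533 probes. They covered all 10 genes. A second Bub1 probe was not well above background in any sample, and a second Top2a probe was so in 2 betamethasone with ketamine animals, 2 betamethasone animals and 0 controls. The Aurkb probe passed only through the betamethasone with ketamine group, with 4, 2 and 0 animals in the betamethasone with ketamine, betamethasone and control groups. Levels below are normalized log2 intensities, which compare samples within 1 probe and not probes with each other.

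**Figure D1:**
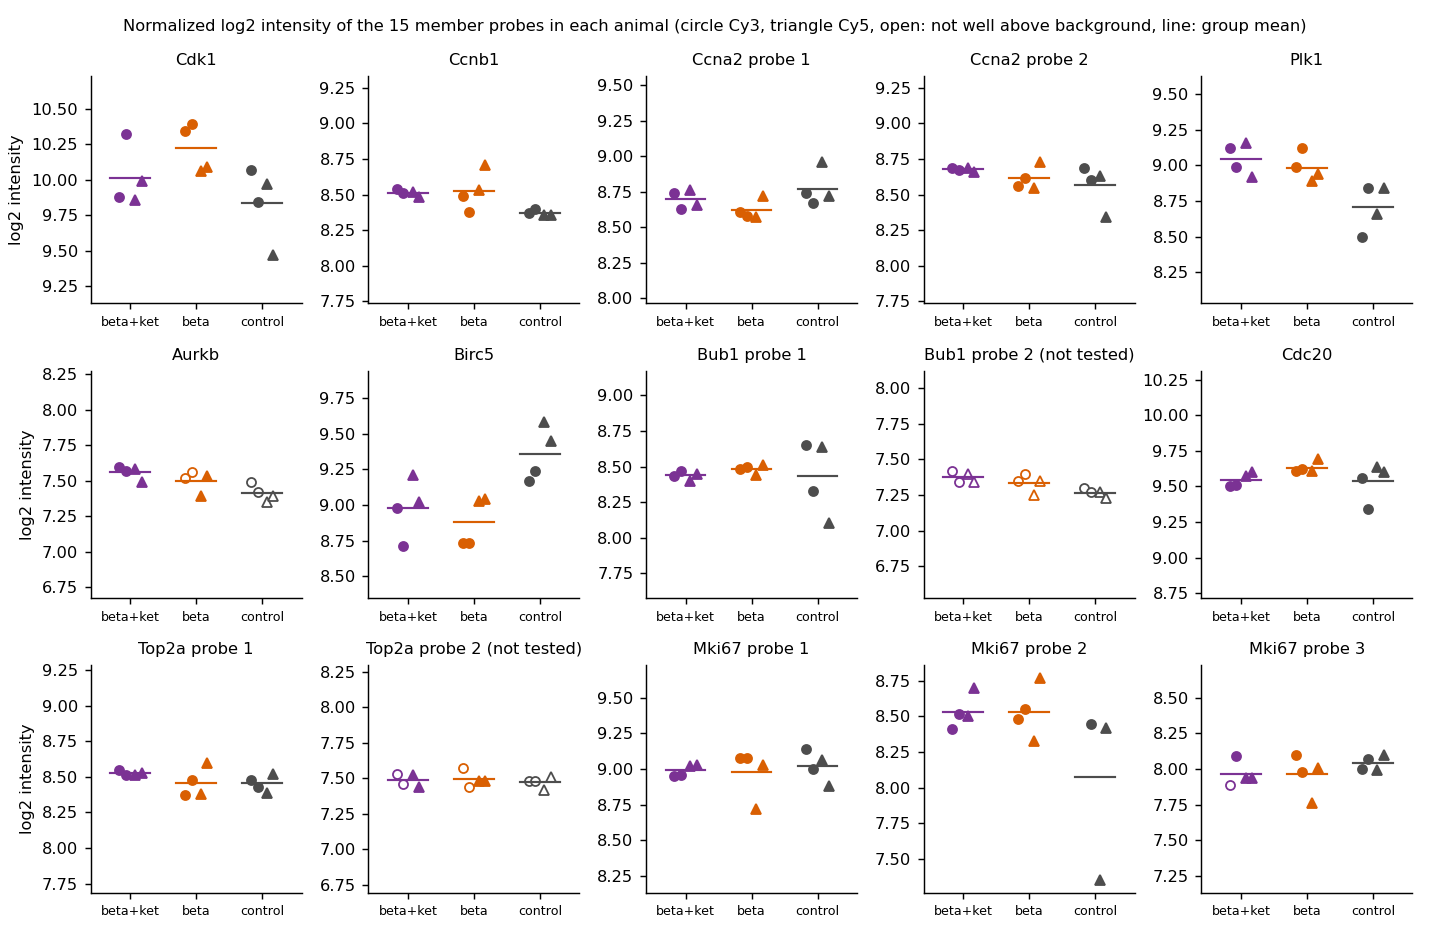
Normalized log2 intensity (vertical axis, a window of 1.6 log2 units in every panel) of the 15 probes in each animal of the betamethasone with ketamine (beta+ket), betamethasone (beta) and control groups, with circles for Cy3, triangles for Cy5, open symbols for values not well above background and lines at group means. Birc5 was at 8.71 to 9.21 and 8.73 to 9.04 in the exposed groups and at 9.17 to 9.58 in controls, so that the first group overlapped the controls. Plk1 overlapped the controls in neither exposed group, and most other probes overlapped between groups.

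Birc5 was lower in both exposed groups than in controls. Its log2 intensity was 8.98, 9.21, 8.71 and 9.02 in betamethasone with ketamine animals 1 to 4. It was 8.73, 9.03, 8.73 and 9.04 in betamethasone animals, against 9.17, 9.58, 9.24 and 9.45 in controls. All 4 betamethasone animals lay below all 4 controls, and of the betamethasone with ketamine animals only animal 2, at 9.21, overlapped the lowest control. The group means were 8.98 ± 0.20, 8.88 ± 0.17 and 9.36 ± 0.19 for betamethasone with ketamine, betamethasone and control (SD, n = 4 each). The difference from control was -0.48 (SE 0.09) after betamethasone, a level of 0.717 times that of controls, and -0.38 (SE 0.09) after betamethasone with ketamine, or 0.767 times. The betamethasone with ketamine group differed from the betamethasone group by 0.10 (SE 0.09), with 0.12 among Cy3 and 0.08 among Cy5 animals. The SDs above mix the dyes and so hold the dye offset given below. Both comparisons with control use the same control animals.

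The 2 dyes gave Birc5 different levels but the same differences. On all 6 arrays the Cy5 animal read higher than the Cy3 animal, by 0.21 to 0.40 log2 units. Among Cy3 animals the exposed ones were at 8.71 to 8.98 and the controls at 9.17 and 9.24, and among Cy5 animals the exposed ones were at 9.02 to 9.21 and the controls at 9.45 and 9.58. Within each dye the betamethasone animals were 0.48 below the controls. The single overlap between groups thus fell between a Cy5 exposed animal and a Cy3 control. Without the array of betamethasone with ketamine animals 1 and 2, the difference of that group from control was -0.50 and from the betamethasone group -0.02. Without the array of animals 3 and 4 these values were -0.27 and 0.21, so that the difference between the exposed groups depended on which array was kept.

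**Figure D2:**
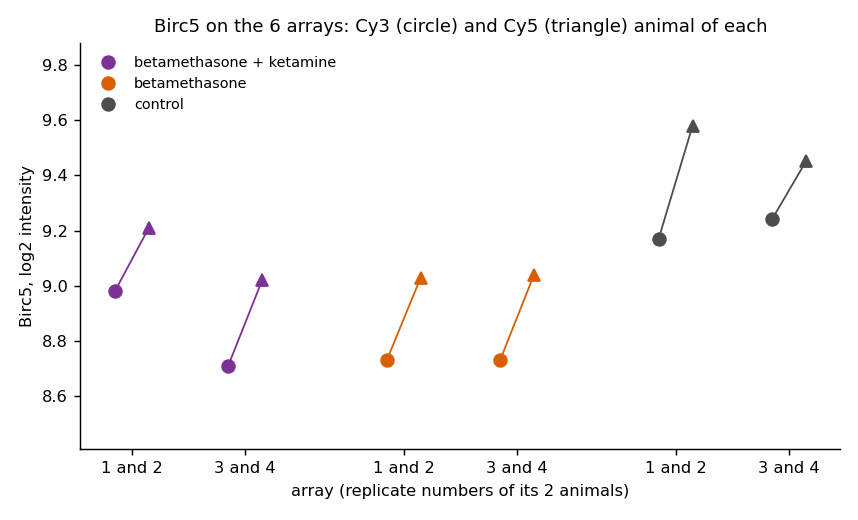
Birc5 log2 intensity (vertical axis) on the 6 arrays (horizontal axis, with the replicate numbers of the 2 animals on each), the Cy3 animal as a circle, the Cy5 animal as a triangle and a line joining them. Each triangle is above its circle, and for each dye the exposed animals are below the 2 control animals.

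Aurkb, the kinase of the same complex, was too dim on its probe to show whether it followed Birc5. Its level was 7.49 to 7.60 in betamethasone with ketamine animals, 7.39 to 7.56 in betamethasone animals and 7.35 to 7.49 in controls. No control sample and only 2 of the 4 betamethasone samples were well above background, so that no fold is given for betamethasone against control. The betamethasone with ketamine group was above the controls by 0.15 (SE 0.08), which is given as a description because the probe entered the model only through that group. On this dim probe the scaling set the size, as the scanner software's own processed signals gave 1.23 for that difference, and under 2 other scalings the betamethasone group was lower than control by 0.88 and 0.61.

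Cdk1 and Plk1, the mitotic kinases, ran the other way from Birc5, with higher mean levels in both exposed groups. Cdk1 was at 9.88, 9.86, 10.32 and 9.99 in betamethasone with ketamine animals 1 to 4. It was at 10.34, 10.06, 10.39 and 10.09 in betamethasone animals, against 10.07, 9.97, 9.84 and 9.47 in controls. With both dyes together the order was betamethasone, betamethasone with ketamine, control, and each group overlapped its neighbour. The betamethasone group was above control by 0.39 (SE 0.15). The betamethasone with ketamine group differed from the betamethasone group by -0.21 (SE 0.15, limma adjusted p = 0.909) and from control by 0.18 (SE 0.15, adjusted p = 0.609). On all 6 arrays the Cy3 animal read higher for Cdk1, and the betamethasone difference was 0.41 among Cy3 animals and 0.36 among Cy5 animals. Within each dye the betamethasone animals lay above the controls, at 10.34 and 10.39 against 10.07 and 9.84 in Cy3. In Cy5 they were at 10.06 and 10.09 against 9.97 and 9.47. The betamethasone with ketamine animals, within each dye, overlapped the controls and lay below the betamethasone animals. Single arrays moved Cdk1: the betamethasone difference was 0.57 without the array of controls 1 and 2 and 0.20 without that of controls 3 and 4. The betamethasone with ketamine difference from control was -0.01 without the array of controls 3 and 4 and 0.32 without the array of betamethasone with ketamine animals 1 and 2.

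Plk1 was at 9.12, 9.16, 8.99 and 8.92 in betamethasone with ketamine animals. It was at 8.99, 8.89, 9.12 and 8.94 in betamethasone animals, against 8.50, 8.66, 8.84 and 8.84 in controls. Neither exposed group overlapped the controls, and the exposed groups overlapped each other. Plk1 was higher than control by 0.28 (SE 0.13) after betamethasone and by 0.34 (SE 0.13, limma adjusted p = 0.333) after betamethasone with ketamine, a 1.26-fold level that did not pass. The 2 exposed groups differed by 0.06 (SE 0.13, adjusted p = 0.953). Without the array of controls 1 and 2 the difference from control was 0.15 after betamethasone and 0.21 after betamethasone with ketamine, and without that of controls 3 and 4 it was 0.41 and 0.47 in the same order.

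The cyclins showed small differences. Ccnb1, the cyclin B1 partner of Cdk1, was at 8.54, 8.52, 8.51 and 8.48 in betamethasone with ketamine animals, 8.49, 8.53, 8.38 and 8.71 in betamethasone animals and 8.37, 8.36, 8.40 and 8.36 in controls. All 4 betamethasone with ketamine animals were above all 4 controls, by a mean of 0.14 (SE 0.11, limma adjusted p = 0.601), and the betamethasone group, at 0.16 (SE 0.11) above control, overlapped both. The controls varied by an SD of only 0.02 on this probe. The cyclin A2 gene Ccna2 had 2 probes, which placed the groups in different orders. Relative to control the betamethasone group was at -0.15 (SE 0.10) on the first and 0.05 (SE 0.11) on the second, and the betamethasone with ketamine group at -0.07 (SE 0.10, adjusted p = 0.776) and 0.11 (SE 0.11, adjusted p = 0.677). The 3 groups overlapped on both probes.

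For the checkpoint and anaphase genes the differences were small as well. Cdc20 was at 9.50, 9.57, 9.51 and 9.60 in betamethasone with ketamine animals, 9.61, 9.61, 9.62 and 9.69 in betamethasone animals and 9.56, 9.64, 9.34 and 9.60 in controls. It was the 1 probe of the 13 whose exposed groups did not overlap, with nearest values of 9.60 and 9.61. The betamethasone with ketamine mean differed from the betamethasone mean by -0.09 (SE 0.09, limma adjusted p = 0.914). Both groups overlapped the controls. The tested Bub1 probe was at 8.40 to 8.47 in betamethasone with ketamine animals, 8.44 to 8.51 in betamethasone animals and 8.65, 8.64, 8.33 and 8.10 in controls. Here the 2 control arrays differed, and the spot lay in a damaged area on the array of controls 3 and 4. Without that array the Bub1 differences from control were -0.16 after betamethasone and -0.21 after betamethasone with ketamine, against 0.05 (SE 0.13) and 0.01 (SE 0.13) with it.

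Top2a, the topoisomerase that separates replicated chromosomes, was at 8.51 to 8.55 in betamethasone with ketamine animals, 8.37 to 8.60 in betamethasone animals and 8.39 to 8.52 in controls on its tested probe. The differences from control were 0.00 (SE 0.09) after betamethasone and 0.07 (SE 0.09, limma adjusted p = 0.754) after betamethasone with ketamine. Mki67 encodes the Ki-67 antigen of cycling cells. Its probe with 10 spots per array was at 8.95 to 9.03 in betamethasone with ketamine animals, 8.72 to 9.08 in betamethasone animals and 8.88 to 9.14 in controls. The differences from control were -0.04 (SE 0.13) after betamethasone and -0.03 (SE 0.13, limma adjusted p = 0.933) after betamethasone with ketamine. On the third probe they were -0.08 (SE 0.12) after betamethasone and -0.07 (SE 0.12, adjusted p = 0.803) after betamethasone with ketamine. The groups overlapped on both probes.

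The second Mki67 probe gave the largest difference of the 13, but it rested on 1 array. Its level was 8.41 to 8.70 in betamethasone with ketamine animals, 8.33 to 8.77 in betamethasone animals and 8.45 and 8.42 in controls 3 and 4, while control 2 was at 7.35. On the array of controls 1 and 2 the local background around this spot was 673 in Cy3 and 645 in Cy5, above or close to the spot's own 594.6 and 654.3, against 17 to 65 on the remaining arrays. The control 1 value was marked as an outlier by the scanner software and left out of the model. The fitted difference from control was 0.57 (SE 0.28) after betamethasone and 0.57 (SE 0.28, limma adjusted p = 0.405) after betamethasone with ketamine. Both were 0.10 without that array.

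The spots printed 10 times show how far spots of 1 probe lie apart within a sample. For Cdk1 the SD between spots of 1 sample ranged from 0.03 to 0.21 (median 0.175), and for the repeated Mki67 probe from 0.03 to 0.26 (median 0.165). The SD between animals of a group, on means over those spots and with both dyes together, was 0.17 to 0.26 for Cdk1 and 0.04 to 0.17 for Mki67. On the array of betamethasone with ketamine animals 1 and 2 the spots of both probes were the most alike, with SDs of 0.04 and 0.03 for Cdk1 and 0.04 and 0.03 for Mki67. Part of the spread recurred by position on several arrays. Spot 1 was the lowest Cdk1 spot in betamethasone animals 1, 3 and 4, at 9.93, 10.01 and 9.61, but not in betamethasone with ketamine animals 1 and 2. An offset that repeats by position cancels between arrays, so these SDs are not the error of a single-spot probe in a comparison. The other 11 tested probes, Birc5 and Plk1 among them, were read from 1 spot per array.

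**Figure D3:**
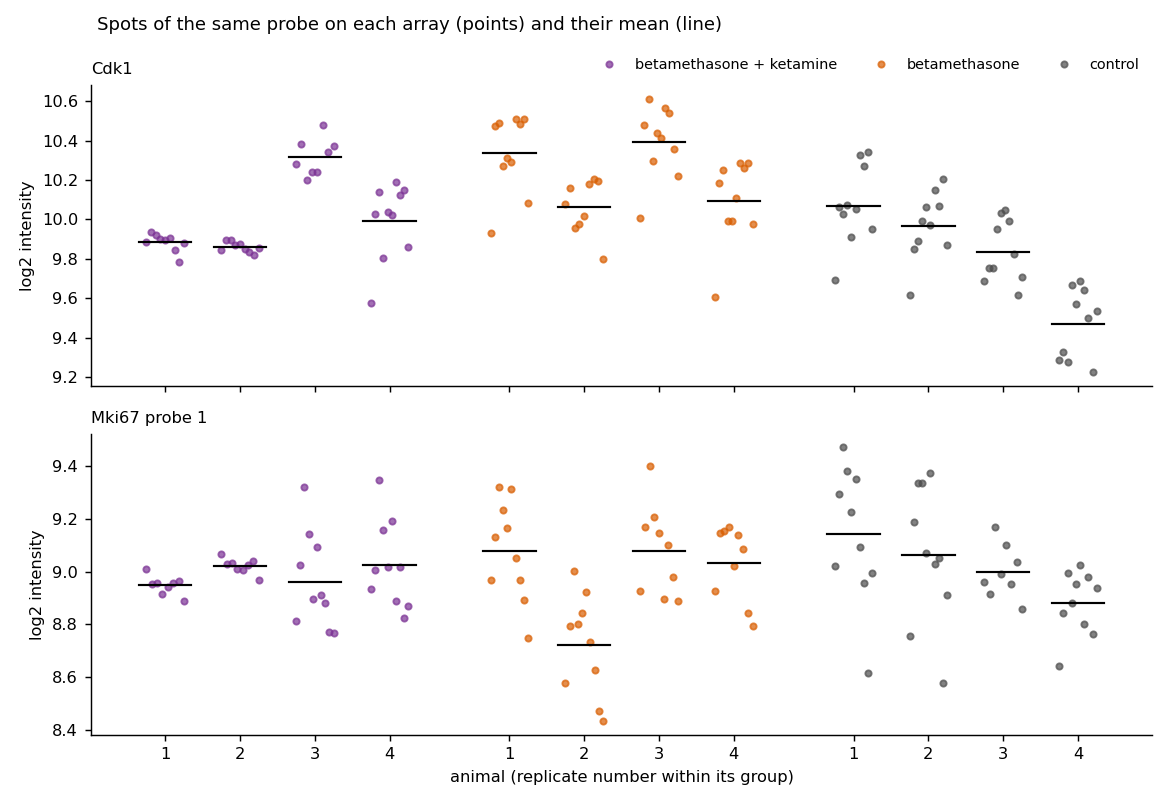
Log2 intensity (vertical axis) of each spot of the Cdk1 probe and of the Mki67 probe printed 10 times, for each animal (horizontal axis), with lines at the animals' means and outlier spots left out. Spots of 1 animal spread by up to 0.21 (Cdk1) and 0.26 (Mki67) SD, and the Cdk1 means of betamethasone animals overlap those of betamethasone with ketamine animals.

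Over the set, few probes separated the groups. After betamethasone alone, against control, 8 of the 13 probes were higher and 5 lower, with a median of 0.05 beside 0.01 for all 21533 probes tested. With both dyes together, groups did not overlap for 2 of them (Plk1 higher, Birc5 lower), and this was so for 17.5% of all probes. By limma 0 were called at an adjusted p of 0.05, against 0.158% of all probes. Since Birc5 was chosen in this comparison, nothing is read from these counts. For betamethasone with ketamine against control, 9 probes were higher and 4 lower, with a median of 0.07 beside 0.06 for all probes. Of 18599 genes with 1 probe each, 11324 were higher and 7275 lower in this comparison. Apart from Aurkb, whose place in the model came from its detection in the betamethasone with ketamine group, the groups did not overlap for 2 probes, both higher (Ccnb1 and Plk1), and 10.5% of all probes were higher without overlap. Of the 13, 0 were called by limma at an adjusted p of 0.05, against 0.0697% of all probes. Of the 12 probes other than Birc5, 1 (Plk1) had an unadjusted p below 0.05, against 13.2% of all probes.

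Ketamine after betamethasone moved none of the 10 genes past the threshold. Of the 13 probes 9 were higher and 4 lower than in betamethasone animals given saline, with a median of 0.01 beside 0.05 for all probes. Of 18599 genes with 1 probe each, 11855 were higher and 6744 lower. The 9 include Birc5, chosen as low in these betamethasone animals. They also include Aurkb, which entered the model only through the betamethasone with ketamine group. Nothing is read from this count. Groups did not overlap for 1 probe (Cdc20, lower), against 1.24% of all probes that were lower without overlap. For the 12 probes other than Birc5 the differences ran from -0.21 (Cdk1) to 0.08, with limma adjusted p from 0.909 to 0.999. Aurkb, 1 of these 12, is given as a description only, for the same reason. The widest 95% interval was that of the second Mki67 probe, 0.66-fold to 1.52-fold, and those of the other 11 probes lay between 0.689-fold (Cdk1) and 1.26-fold (Plk1). Called probes made up 0% of all probes in this comparison (0 of 21533 by limma, with 670, or 3.11%, at an unadjusted p below 0.05), and 0 of the 12 had an unadjusted p below 0.05. Both groups lay on 1 slide.

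**Figure D4:**
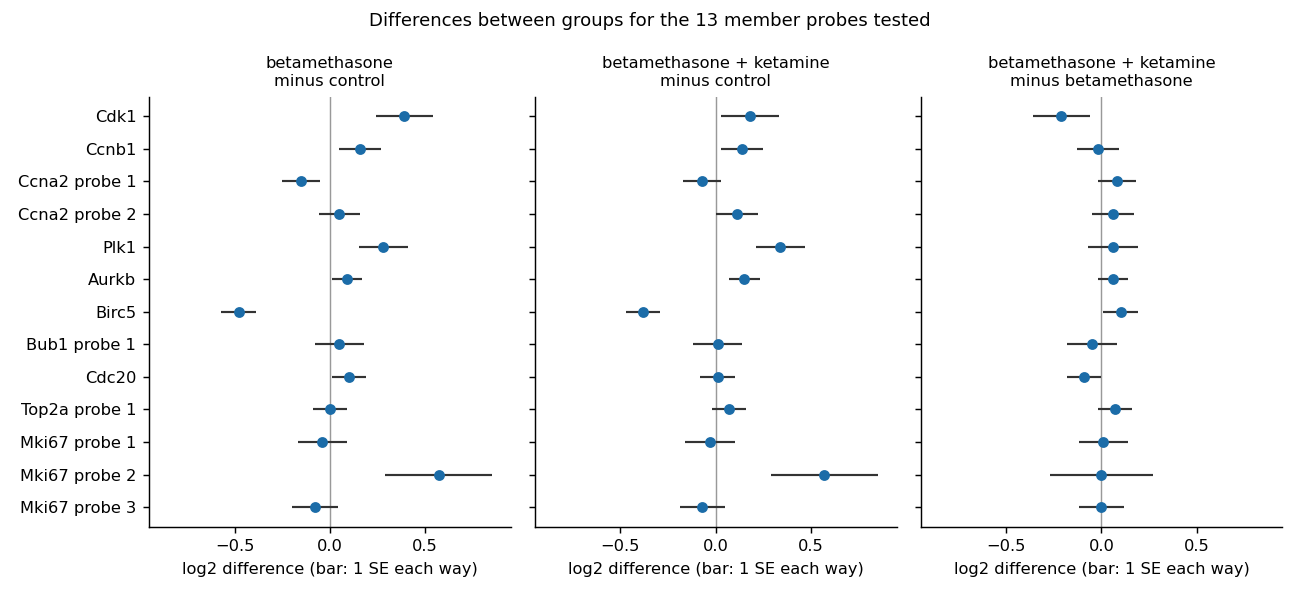
Fitted log2 difference (horizontal axis, point) with 1 SE each way (bar) for the 13 tested probes (vertical axis) in the 3 comparisons, of which the first chose Birc5 and the first 2 share the controls. Birc5 is at -0.48 and -0.38 against control, the second Mki67 probe at 0.57 with an SE of 0.28, and in the third comparison all points lie between -0.21 and 0.10.

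The 5 named genes whose profile over the 12 samples, dye offset included, was most like that of Birc5 were not among the mitotic genes. The lists of other cell-division genes below hold 113 of the 18599 genes tested, so nothing is read from their absence among 5. The profile also holds the betamethasone and control values on which Birc5 was chosen. Likeness was the root mean square difference of log2 values after centring each probe on its own mean, over 20849 probes with all 12 values. The dye was not removed, and Birc5 read higher in Cy5 on all 6 arrays, by 0.21 to 0.40. Probes with a like dye offset therefore score as nearer, and those with the opposite offset, such as Cdk1, as farther. How much of the likeness is dye was not tested. The nearest named genes were Sepsecs (0.074), Slitrk4 (0.083), Uba2 (0.088), Ubn1 (0.095) and Ndufa4 (0.096), against a median of 0.316 for all probes and a spread of 0.264 for Birc5 itself. Sepsecs makes selenocysteinyl-tRNA, Slitrk4 is a neuronal transmembrane protein, Uba2 is part of the SUMO-activating enzyme, and Ndufa4 is a mitochondrial respiratory chain protein. All 5 were lower after betamethasone than in controls, by 0.33 to 0.48 on the log2 scale, which their choice for likeness to Birc5 entails.

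Other cell-division genes were described through 10 lists, with 1 probe per gene (the brightest), 113 genes in all. None of the 113 passed in any of the 3 comparisons (limma, smallest adjusted p 0.315 after betamethasone, 0.909 for ketamine after betamethasone and 0.299 for betamethasone with ketamine against control). At an unadjusted p below 0.05 by limma, 5 were higher and 4 lower after betamethasone. Of all 18599 genes with 1 probe each, 1030 were higher and 1164 lower at that p (5.35% and 6.01% of all probes). For ketamine after betamethasone 3 were higher and 2 lower, beside 371 and 230 of the 18599 genes (1.87% and 1.24% of all probes). For betamethasone with ketamine against control 6 were higher and 5 lower, beside 1540 and 987 of the 18599 genes (8.13% and 5.08% of all probes). Against control and at any p, 56 were higher and 57 lower after betamethasone, beside 9676 and 8923 of the 18599 genes. After betamethasone with ketamine 68 were higher and 45 lower, beside 11324 and 7275 of the 18599 genes. The list medians stayed between -0.13 and 0.28 in the comparisons with control, next to 0.01 and 0.06 for all genes tested.

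The passenger complex and its relatives gave 3 tested genes. Incenp, the scaffold of the complex that holds Birc5 and Aurkb, was at 9.71, 9.75, 9.77 and 9.61 in betamethasone with ketamine animals. It was at 9.54, 9.69, 9.75 and 9.72 in betamethasone animals, against 9.51, 9.51, 8.89 and 8.83 in controls. The exposed animals were all above the controls, but controls 1 and 2 lay near the exposed animals and controls 3 and 4 well below. Its difference from control was 0.49 after betamethasone (SE 0.17, limma adjusted p = 0.315) and 0.53 after betamethasone with ketamine (SE 0.17, adjusted p = 0.299). Aurka, the spindle pole Aurora kinase, was at 0.28 (SE 0.20, adjusted p = 0.542) for betamethasone with ketamine against control. Tpx2, which activates it, was at -0.22 (SE 0.14, adjusted p = 0.615) after betamethasone.

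Among other genes of M-phase control, Wee1, the kinase that holds Cdk1 inactive, was at -0.42 after betamethasone (SE 0.15, limma adjusted p = 0.325). Its groups did not overlap. Ccnf was at 0.39 (SE 0.15, adjusted p = 0.335) for betamethasone with ketamine against control, also without overlap, and the phosphatase gene Cdc25a at 0.24 (SE 0.09, adjusted p = 0.336). Among spindle motors, Kif22 was at 0.33 after betamethasone (SE 0.14, adjusted p = 0.405) and 0.40 after betamethasone with ketamine (SE 0.14, adjusted p = 0.314), and the groups did not overlap in either. Kif20a, a motor of cytokinesis, was at 0.28 in the second comparison (SE 0.11, adjusted p = 0.335), and the spindle midzone protein Prc1 at 0.22 in the first (SE 0.09, adjusted p = 0.405). These values lie on both sides of 0 and none passed.

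Upstream of mitosis the values also lay on both sides of 0. Rb1, the retinoblastoma repressor of S phase genes, was at -0.42 after betamethasone (SE 0.16, limma adjusted p = 0.362), and E2f8 at -0.66 for betamethasone with ketamine against control (SE 0.25, adjusted p = 0.333). For E2f8 the array of betamethasone with ketamine animals 1 and 2 (7.64 and 7.62) lay apart from animals 3 and 4 (8.46 and 8.47). Of 26 DNA replication genes, Rrm1 was at -0.28 after betamethasone (SE 0.11, adjusted p = 0.368), and Tk1 at 0.25 for betamethasone with ketamine against control (SE 0.11, adjusted p = 0.378). Of 7 mitotic transcription factor genes, Mybl2 was at 0.31 after betamethasone (SE 0.12, adjusted p = 0.368). A last list of 6 tested genes held inhibitor of apoptosis relatives of Birc5 and also Diablo, which binds such inhibitors and is not a relative. Of the 6, Diablo included, 5 were lower than control in each exposed group. The medians were -0.13 for betamethasone and -0.04 for betamethasone with ketamine, and none passed. As few as 3 of the 6 were well above background in a betamethasone sample and 4 in a control, so nothing is read from this count. Diablo was at -0.24 (SE 0.09, adjusted p = 0.338) for betamethasone with ketamine against control.

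**Figure D5:**
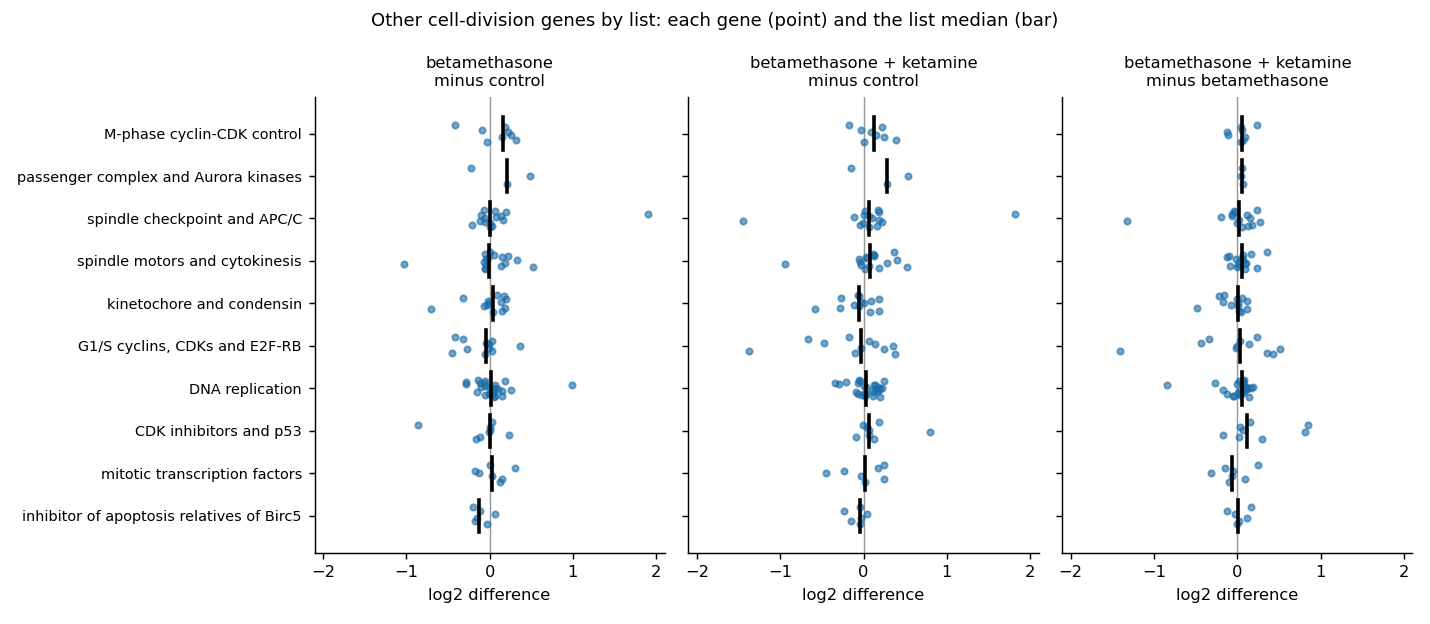
Fitted log2 difference (horizontal axis) of each tested gene (point) in 10 lists of other cell-division genes (vertical axis), with a black bar at the list median, in the 3 comparisons. Most points lie near 0 and list medians run from -0.13 to 0.28 in the comparisons with control. The far points include Pttg1 at 1.90 and 1.82.

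Markers of cell types, some of which could hold dividing cells, were read beside these genes. All 8 oligodendrocyte precursor genes were tested, and their summed linear intensity was 21800 to 24600 in betamethasone with ketamine animals, 21500 to 25300 in betamethasone animals and 22400 to 26800 in controls, and 6 of the 8 were lower than control in each exposed group, with medians of -0.12 after betamethasone with ketamine and -0.13 after betamethasone. The 9 microglia genes summed to 31000 to 33000, 28200 to 30400 and 26300 to 30700 in the same order of groups, with 7 of 9 higher than control after betamethasone with ketamine (median 0.26) and 5 of 9 after betamethasone (median 0.02). The 7 endothelial genes summed to 12900 to 15900, 12300 to 15300 and 10000 to 13300, with 6 of 7 higher than control after betamethasone with ketamine (median 0.26) and 7 of 7 after betamethasone (median 0.14). None of these 3 lists held a gene that passed in either comparison (limma, smallest adjusted p 0.25). The 8 markers of myelinating oligodendrocytes summed to 32900 to 71000, 22200 to 52400 and 41900 to 88700 in the same order of groups. The brightest probes weigh most in these sums, such as that of Mbp, at log2 intensities of 14.06 to 16.18. Of these 8 genes, 7 were lower than control after betamethasone with ketamine and 8 after betamethasone, with medians of -0.50 and -0.60, and 0 passed (limma, smallest adjusted p 0.323 and 0.316). The neural progenitor genes (6 tested) summed to 10900 to 15000, 13200 to 14400 and 12500 to 16900, with medians of 0.05 after betamethasone with ketamine and -0.02 after betamethasone, and 0 passed (smallest adjusted p 0.443). Every tested marker of the precursor, microglia, endothelial and progenitor lists was well above background in all samples, as were at least 7 of the 8 myelin markers in the exposed animals and 8 in the controls. Of 7 astrocyte genes, 5 were higher than control after betamethasone with ketamine (median 0.10) and 3 after betamethasone (median -0.14). None of the 7 passed (limma, smallest adjusted p 0.328 and 0.355). The part of these cell types in the values of the mitotic genes was not tested.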

How the data were processed

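Total RNA was measured on 2-colour Agilent arrays, with spot signals deposited as intensity values by Feature Extraction 11.5.1.1 (control slide) and 11.0.1.1 (the other slide), per the file headers; the submitters' processing notes name 10.7.3.1. The deposited value table held a ratio per sample (background-subtracted signal over the column median, found by matching it to the scanner values; no log or centring beyond that). Its columns for controls 1 and 2 matched the scanner files of controls 3 and 4 and the reverse, so it served only as an alternative. One label field gives another age than the rest. The members and lists were chosen with earlier results of these data known.

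Mean foreground and median background were corrected by normexp (offset 50), then loess within and Aquantile between arrays; each channel was a sample, and log2 values were computed from the deposited intensity values. Control spots and spots marked as outliers were dropped, and the spots of a probe were averaged. The filter kept a probe that was well above background in 3 or more of the 4 samples in any group and had 3 or more values in each (21533 tested). Probe names came from RefSeq by accession (18406 of 30367), symbol (3005) or synonym (490); 8466 kept the file's name. The number of arrays, 2 per group, limits the precision.

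Groups were compared with limma 3.58.1 (R 4.3.3, statmod 1.5.0): 12 samples in 1 model, a dye term, the array as a random block (correlation 0.5577), 2-sided p-values adjusted over all probes by Benjamini and Hochberg. The model was tested on simulated data. Named were the 10 genes, from each list any gene past an adjusted p of 0.05 and the 2 with the smallest p per comparison, and the 5 named probes nearest to Birc5. Samples of the same replicate number correlated at -0.138 to 0.0408 after group means and dye were removed, and the model used no pairing. With so few animals per group these values cannot exclude shared litters. The alternatives were other scalings, filters, array terms, damaged areas left out, and each sample or array left out.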

Additional observations from a re-analysis of the deposited data

Results flagged for a closer look

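The repeated Mki67 probe in betamethasone animal 2, at a log2 intensity of 8.72, lay far from the other 3 betamethasone animals (9.03 to 9.08); its gap to the nearest was 0.866 of the group's range. It was 1 of 44 combinations of probe and group examined, and chance marks about 1 in 20.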

How the results depend on the processing

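Under the alternatives run, Birc5 was lower than control in all 28 settings of each comparison. The differences ran from -0.731 to -0.446 after betamethasone and from -0.652 to -0.262 after betamethasone with ketamine. Birc5 was chosen as lower in these same samples, and every setting reuses them and the separate control slide, so the shared sign is no test. Of 1069 values of the 13 probes, 89 moved by their spread between replicates or more. For betamethasone against control, ketamine after betamethasone, and betamethasone with ketamine against control, in that order (the first, the second and the third below), the scanner software's processed signals gave 85, 4 and 157 called probes among all tested (34, 0 and 15 in the model used), with a median of 0.139 for the 13 probes in the third. Scaling to the 75th percentile without loess gave 0 called in the first and the third, and medians of -0.311, 0.545 and 0.233, while the medians of all probes shifted to -0.22, 0.35 and 0.17. Loess with array medians gave 0 called in the first and the third, and medians of -0.041 and 0.123 in the first and the second. The deposited value table gave 16 and 8 called in the first and the third, with medians of -0.061 and -0.04. Without the filter on dim probes 74, 1 and 29 were called, with 1 of the 13 probes in the first; without the array term 1004, 1 and 720, with 1 of the 13 in the first and in the third; that probe was Birc5, which was chosen on these samples and controls, so nothing is read from these counts. Array means, 2 per group, gave 3 and 2 called in the first and the third, and a replicate block 13 and 7 with 0 in the second; the block changed no call among the 13. Leaving out 1 sample gave 3 to 63, 0, and 3 to 20 called, and 0 of the 13. Leaving out 1 array gave 19 to 553, 0 to 2600 and 3 to 3169 called, and 0 to 1 of the 13 (again Birc5, likewise not read as a test) in the first and the third; the medians of the 13 ran from -0.007 to 0.108, -0.032 to 0.099 and -0.018 to 0.1. The counts were 553, 31 and 110 without betamethasone with ketamine animals 1 and 2, and 473, 2600 and 3169 without animals 3 and 4 of that group. Without controls 1 and 2, or 3 and 4, the first comparison gave 281 and 369 and the third 218 and 367. The causes were not tested. Spots near the background, such as Aurkb, limit what the scalings can settle.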

Other observations

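Several cell-division genes outside the set had values that split by array and not by group. Pttg1, the securin gene, was at 10.1 to 10.5 in the betamethasone with ketamine and betamethasone animals and in controls 1 and 2, and at 7.21 and 6.11 in controls 3 and 4. Cdc16, an anaphase-promoting complex subunit, was at 7.70 and 7.67 in betamethasone with ketamine animals 1 and 2 and at 10.33 to 10.68 in every other sample. Ccnd3, the cyclin D3 gene, was at 7.50 and 7.51 in the same 2 animals and at 9.87 to 10.52 elsewhere. Cdkn2a, a CDK inhibitor gene, showed the split on the other array of that group, with 9.40 and 9.34 in betamethasone with ketamine animals 3 and 4 and 7.55 to 7.78 in every other sample. None of the 10 genes showed a split of that size.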
